A study of Homo sapiens with 8 samples.

Results

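The guanylate-binding proteins (GBPs) were taken as the rows of the count table whose gene symbol was GBP1, GBP2, GBP3, GBP4, GBP5, GBP6 or GBP7, which gave 7 of 60710 rows. They were measured in A375 cells, an established human metastatic melanoma cell line. TNF-treated cells received 50 ng/mL human recombinant TNF for 24 h and non-treated (NT) cells received no TNF for the same time. Stranded poly(A) RNA-Seq was carried out on 4 TNF and 4 NT libraries, 1 of each from each of 4 independent experiments, so every value describes this single line at this single time. The comparison answers which GBP genes A375 cells expressed and which of them differed after TNF.

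GBPs are large GTPases of the dynamin superfamily that are best known as genes switched on by interferons, above all by interferon-gamma. In infected human cells GBP1 assembles on the surface of Gram-negative bacteria and on pathogen vacuoles and recruits GBP2, GBP3 and GBP4, and this coat helps caspase-4 to sense bacterial lipopolysaccharide. GBP1, GBP2 and GBP5 end in a CaaX motif that receives a lipid anchor, which ties GTP-driven assembly to membranes.

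All 7 genes are annotated as protein-coding in a cluster of 381 kb on chromosome 1 (GRCh38, GENCODE v44, positions 89006679 to 89388160). In order along the chromosome they are GBP3, GBP1, GBP2, GBP7, GBP4, GBP5 and GBP6. The first 6 lie on the minus strand and GBP6 lies on the plus strand. The GBP2 and GBP7 loci overlap by 18715 bases on the same strand. The main transcript has 11 exons in each gene except GBP5, which has 12.

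Promoter windows of 300 bases (250 before and 50 after the annotated start, RefSeq, GRCh38.p14) were matched for 5 of the 7 members, GBP1, GBP3, GBP4, GBP6 and GBP7. They were searched on both strands for the letters GAAANNGAAA, the core of the interferon-stimulated response element (ISRE) that IRF-family factors bind. GBP1, GBP3 and GBP4 each held 1 match, and GBP6 and GBP7 held none. Of all 35116 promoters in the table, 3.57% held a match. The stretches are shown because they let the matches in these 3 genes be compared, and capitals mark the match, which lies on the opposite strand to the letters searched. The match starts 127 bases before the RefSeq start in GBP1, 4 bases before it in GBP4 and 3 bases after it in GBP3. In GENCODE v44 the GBP1 and GBP3 genes start at 89065360 and 89022894 on the minus strand. By that annotation both of these matches lie inside the gene, so the distances depend on the start used. GBP1 and GBP3 share the same 10 letters in the match, with a common flank before them, and GBP4 differs from both within it.
GBP1 ISRE, chr1:89065316-89065345, minus strand: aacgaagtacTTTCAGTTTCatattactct
GBP3 ISRE, chr1:89022845-89022874, minus strand: aaagaagtacTTTCAGTTTCattaggctct
GBP4 ISRE, chr1:89198927-89198956, minus strand: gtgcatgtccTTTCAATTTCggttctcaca

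A match to the NF-kB consensus, the motif bound by the factors that TNF activates, was found in the windows of GBP4 and GBP7 and in 5.91% of all promoters. That of GBP4 starts 45 bases before its annotated start, again on the opposite strand, and is marked in capitals.
GBP4 NF-kB, chr1:89198968-89198997, minus strand: ttgataaacaGGAAAATCCCcaacagtcaa
The interferon-gamma activated site (letters TTCNNNGAA) was matched only in GBP3 among the 5 members, starting 15 bases before its start, and in 7.66% of all promoters. A match to a motif is a description of the letters and does not show that a factor binds there.

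The libraries held 33317454 to 43125094 counts in TNF-treated cells and 30989787 to 44373296 counts in NT cells. Ribosomal, 7SK and 7SL RNA made up 0.0112% to 0.0117% of counts in TNF replicate 4 and NT replicates 2 and 4, and 0.00206% to 0.00379% in the other 5 libraries. Of 16186 genes that passed the filter on low counts, 14.5% rose and 9.90% fell with TNF (edgeR quasi-likelihood test, Benjamini-Hochberg adjusted p under 0.05), which was 2345 and 1603 genes. With upper-quartile factors in place of TMM the numbers were 2045 and 2196, and with library totals alone 1925 and 2514. All 8 genes of a list of NF-kB targets rose, with a median log2 fold change of 3.69. Of 8 melanocyte lineage markers 5 were tested and S100B alone passed the test, with a log2 fold change of -2.50. SOX10 averaged 1177 CPM (counts scaled to library size) in TNF-treated cells and 1025 in NT cells, while PMEL and MLANA stayed below 1 CPM in all 8 libraries and TYR, TYRP1 and DCT were too low to test. In bulk RNA, fewer cells of a type and less RNA per cell cannot be told apart. Of 17 markers of other cell types, 10 were tested, 6 rose and 2 fell, and their summed level was 59.8 to 98.2 CPM in TNF-treated cells and 48.7 to 55.5 CPM in NT cells. CD68, CSF1R, PECAM1, TEK, KRT5 and DCN rose, and LYZ and KRT14 fell. CSF1R, TEK and KRT5 reached at most 0.191, 0.286 and 0.278 CPM in NT libraries. They passed the filter on low counts only through their TNF libraries, so the number that rose depended in part on the filter. CD68, a macrophage marker, averaged 56.9 CPM in TNF-treated cells and 23.7 CPM in NT cells, and CSF1R, another, 0.886 and 0.146 CPM. Of other myeloid markers in the list, LYZ averaged 3.10 and 5.80 CPM, and CD14, too low to test, 0.17 and 0.16 CPM. The leukocyte markers PTPRC and CD3E were below 0.1 CPM in every library. The part of such cells in the GBP results was not tested.

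Expression of the family was carried by GBP2 and GBP1. Per kilobase of merged exons GBP2 had the highest mean level, at 1.74 ± 0.508 CPM per kb in TNF-treated cells and 2.32 ± 0.608 in NT cells (SD, n = 4 each). GBP1 came next, at 1.32 ± 0.0676 CPM per kb in TNF-treated cells and 0.951 ± 0.166 in NT cells. In TNF-treated cells the ranges of these 2 genes touched, at 1.37 to 2.49 for GBP2 and 1.23 to 1.39 for GBP1, whereas in NT cells every GBP2 value lay above every GBP1 value. With the length of the longest transcript in place of merged exons the means were 3.07 for GBP2 and 1.97 for GBP1 in TNF-treated cells, against 4.10 and 1.42 in NT cells, in the same order, and the ranges in TNF-treated cells, 2.42 to 4.39 for GBP2 and 1.84 to 2.08 for GBP1, did not touch.

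GBP4 and GBP3 were expressed at a far lower level. GBP4 averaged 0.168 CPM per kb in TNF-treated cells and 0.0224 in NT cells. GBP3 averaged 0.137 CPM per kb in TNF-treated cells and 0.0842 in NT cells. In TNF-treated cells the ranges of these 2 genes overlapped (0.0717 to 0.232 for GBP4 and 0.107 to 0.172 for GBP3), while in NT cells GBP4, at 0.00696 to 0.0413, lay below GBP3, at 0.0649 to 0.104. GBP5 and GBP6 were at most 0.0274 CPM per kb in every library, overlapping each other, and GBP7 had no count. Of the summed mean level per kb of the 7 genes, GBP2 made up 51.5% in TNF-treated cells and 68.4% in NT cells, GBP1 39.0% and 28.0%, GBP4 4.97% and 0.660%, and GBP3 4.07% and 2.48%.

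**Figure D1:**
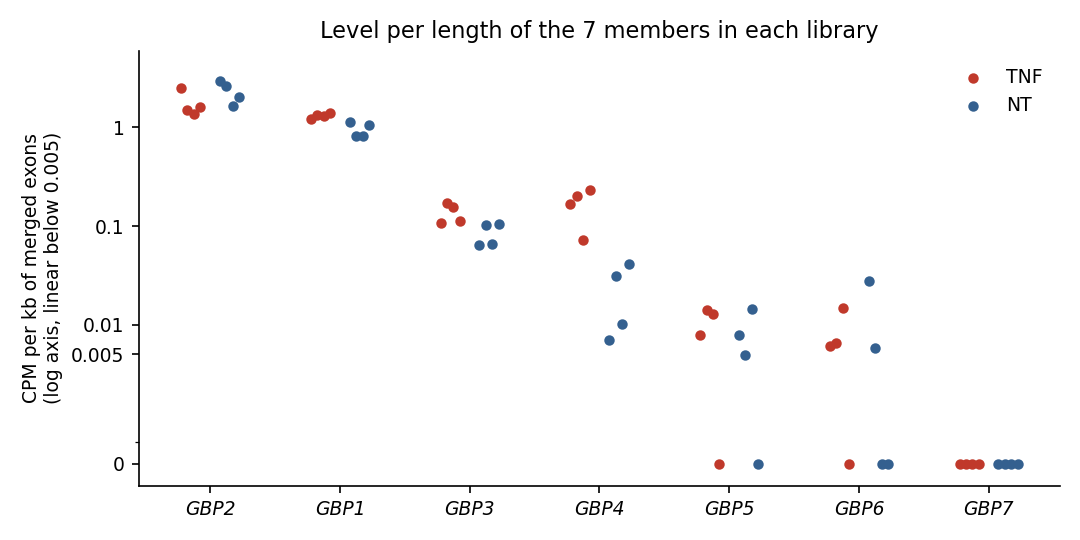
Level per length (CPM per kb of merged exons, log axis that is linear below 0.005) of the 7 GBP genes in each library, with TNF-treated cells to the left of NT cells for each gene and 1 point for each library. GBP2 and GBP1 lie near 1, GBP3 and GBP4 lower, at means of 0.137 and 0.168 in TNF-treated cells, GBP5 and GBP6 near the detection limit and GBP7 at 0.

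After the filter on low counts GBP1, GBP2, GBP3 and GBP4 were tested and GBP5, GBP6 and GBP7 were not. GBP4 passed the filter only through its TNF libraries, which held 18.85 to 43.72 counts. Its NT libraries held 2.03 to 8.23 counts, each under 10. Its place among the members tested, and in the counts below, thus depended on the group in which it was higher. GBP1 and GBP4 rose with TNF, 2 of the 4 tested, and GBP2 and GBP3 did not pass the test, beside 14.5% of all genes tested that rose and 9.90% that fell. In GBP1, GBP3 and GBP4 every TNF library lay above every NT library in CPM, a pattern seen in 15.6% of genes tested, and in no member did every TNF library lie below every NT library, as in 11.7% of them. When the experiment was added as a block, GBP1 and GBP4 rose and GBP2 fell, beside 21.3% of all genes that rose and 18.2% that fell in that fit.

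GBP4, which joins the GBP1 coat on bacteria, showed the largest response of the family. The deposited counts were 36.42, 39.65, 18.85 and 43.72 in TNF libraries of experiments 1 to 4, against 2.08, 6.81, 2.03 and 8.23 in NT libraries. In CPM these were 1.03, 1.23, 0.440 and 1.42 in TNF-treated cells and 0.0427, 0.191, 0.0630 and 0.254 in NT cells. GBP4 was thus close to the detection limit without TNF and low but clearly measured with it, and the lowest TNF library still exceeded the highest NT library. The mean was 1.03 ± 0.425 CPM in TNF-treated cells and 0.138 ± 0.102 CPM in NT cells (SD, n = 4 each). GBP4 rose 7.54-fold (95% interval 3.30 to 17.2), a log2 fold change of 2.91 ± 0.54 (SE, edgeR adjusted p = 0.00263). Within experiments 1 to 4 the difference in log2 CPM, with a prior count of 2, was 3.47, 2.38, 2.06 and 2.26. That prior shrinks differences at counts this low, so their sizes and order need not be those of the CPM above. The NT libraries with more ribosomal RNA, replicates 2 and 4, were the 2 highest NT libraries for GBP4, and TNF replicate 4 was the highest TNF library. Over the remaining 5 libraries GBP4 rose by 4.03 on the log2 scale (edgeR adjusted p = 0.00244). What part the share of ribosomal RNA, or whatever lies behind it, had in the difference was not tested. By the size of the log2 fold change GBP4 was 166th of the 2345 genes that rose. NT replicates 1 and 3 held 2.08 and 2.03 counts, under the detection limit of 3 counts. The fold change of GBP4 and this rank are thus approximate. None of its 8 counts was whole, since reads that also fit other transcripts were divided among them by the authors' estimation, and 4.33% of the 50-base windows of its main transcript recur in transcripts of other genes, most often CASP10.

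GBP1, the founding member that starts the coat, rose modestly. Its counts were 261, 266, 347 and 262 in TNF libraries of experiments 1 to 4, against 322, 181, 157 and 203 in NT libraries. After normalization these were 7.49, 8.17, 8.04 and 8.48 CPM in TNF-treated cells and 6.88, 4.95, 4.94 and 6.44 CPM in NT cells. The TNF libraries were close to each other and the NT libraries fell into a wider range below them, with the smallest gap in experiment 1. The mean was 8.04 ± 0.412 CPM in TNF-treated cells and 5.80 ± 1.01 CPM in NT cells (SD, n = 4 each), a 1.38-fold rise (95% interval 1.12 to 1.72, log2 0.47 ± 0.14 SE, edgeR adjusted p = 0.0325). The log2 difference within experiments 1 to 4 was 0.12, 0.72, 0.70 and 0.39. GBP1 was 1728th of the 2345 genes that rose. The call was close to the threshold: the edgeR adjusted p was 0.0509, 0.0788, 0.0658 and 0.0539 without TNF replicates 1, 2, 3 and 4, and 0.0992 and 0.0931 without NT replicates 2 and 3, but 0.022 and 0.0385 without NT replicates 1 and 4. It was 0.0539 with upper-quartile factors, 0.0719 with library totals, 0.0581 with no filter on low counts and 0.136 when TNF replicate 4 and NT replicates 2 and 4 were left out together. Of the 50-base windows of its main transcript 14% recur in other genes, mostly in the pseudogene GBP1P1, whose row held 0 counts in all 8 libraries.

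GBP2, a GBP1 relative that carries a geranylgeranyl anchor and, with GBP5, restrains the protease furin, was the only tested member with a lower mean after TNF. Its counts summed to 1762 over the TNF libraries and 2544 over the NT libraries. In experiments 1 to 4 it was at 18.0, 10.8, 9.89 and 11.6 CPM in TNF-treated cells and at 21.5, 19.2, 11.8 and 14.6 CPM in NT cells. The experiments also differed from each other, with experiment 1 highest in both groups, and the groups overlapped although the TNF value was below the NT value in 4 of 4 experiments. The mean was 12.6 ± 3.67 CPM in TNF-treated cells and 16.8 ± 4.39 CPM in NT cells (SD, n = 4 each), a log2 fold change of -0.42 ± 0.23 that did not pass the test (SE, edgeR adjusted p = 0.218, fold 0.747 with a 95% interval of 0.528 to 1.06). The log2 difference within experiments 1 to 4 was -0.26, -0.82, -0.25 and -0.34. With the experiment as a block GBP2 fell by 0.42 on the log2 scale (SE 0.10, edgeR adjusted p = 0.00825). Without TNF replicate 1, the highest TNF library, the unblocked log2 fold change was -0.65 (edgeR adjusted p = 0.0433). The block rests on the dates in the column names of the deposited series table. The deposited NT records carry these libraries under other dates, and with their numbering the blocked log2 fold change was -0.42 with an adjusted p of 0.145.

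GBP3, which supports caspase-4 activation within the coat, had few counts in every library. Its counts were 16, 24, 29 and 15 in TNF libraries of experiments 1 to 4, against 13, 16, 9 and 14 in NT libraries. In CPM these were 0.459, 0.737, 0.672 and 0.485 in TNF-treated cells and 0.278, 0.437, 0.283 and 0.444 in NT cells. The groups did not overlap, but TNF replicate 1 and NT replicate 4 were close to each other. The mean was 0.588 ± 0.137 CPM in TNF-treated cells and 0.361 ± 0.0926 CPM in NT cells (SD, n = 4 each). The log2 fold change of 0.71 ± 0.31 did not pass the test over all genes (SE, edgeR adjusted p = 0.121, fold 1.64 with a 95% interval of 1.03 to 2.62 before adjustment).

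**Figure D2:**
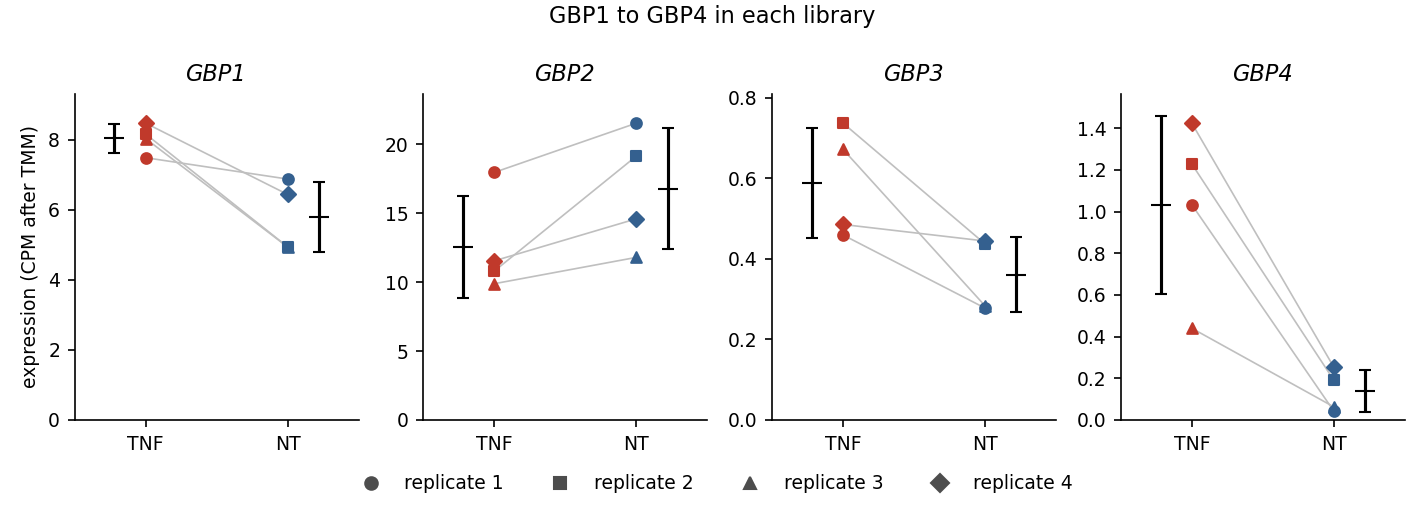
Expression (CPM after TMM, linear axes from 0) of GBP1 to GBP4 in each library, with TNF-treated cells left of NT cells, a marker shape for each experiment and a grey line joining the libraries of each. Black bars give the mean and SD of 4 libraries. All TNF libraries lie above all NT libraries for GBP1, GBP3 and GBP4, and each line runs upward to NT for GBP2.

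**Figure D3:**
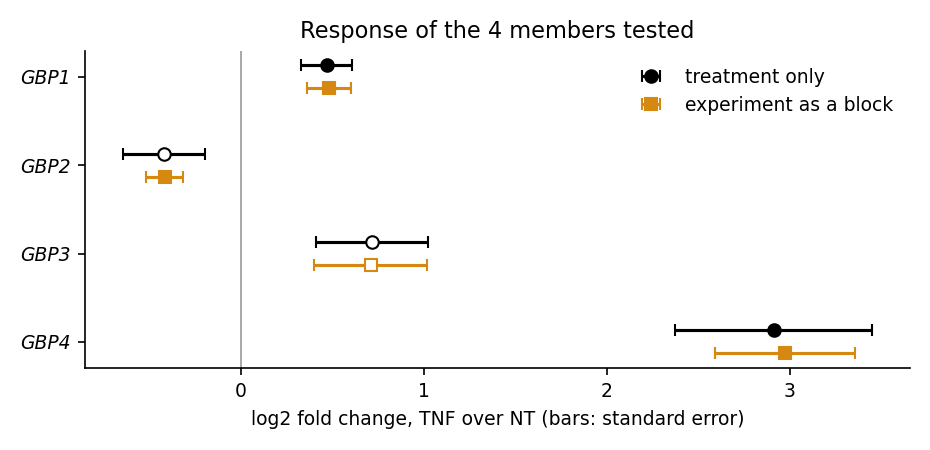
Log2 fold change (TNF over NT) of GBP1 to GBP4 from edgeR, with bars for the standard error, for the fit on treatment alone (black circles) and with the experiment as a block (orange squares). Filled markers passed an adjusted p of 0.05, as GBP2 did only with the block, at -0.42 in both fits, while GBP4 stands apart at 2.91.

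The relation of GBP1 to GBP2 counts within a library does not depend on normalization and was looked at after the values above were seen. The GBP1 to GBP2 count ratio was 0.417, 0.756, 0.813 and 0.734 in TNF libraries of experiments 1 to 4, against 0.319, 0.258, 0.419 and 0.441 in NT libraries. It was higher with TNF in each experiment, and the groups overlapped only through TNF replicate 1, which lay between NT replicates 1 and 3.

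GBP5, GBP6 and GBP7 were at or near the detection limit, where 3 counts correspond to 0.0676 to 0.0968 CPM. GBP5, which promotes NLRP3 inflammasome assembly in mouse macrophages, had 2.67, 4.99, 6.11 and 0 counts in TNF libraries of experiments 1 to 4, against 4.22, 2.41, 5.31 and 0 in NT libraries. GBP6 had 1.09, 1, 2.8 and 0 counts in TNF libraries and 6, 1, 0 and 0 in NT libraries. The groups overlapped for both genes, and a difference was not detectable at this depth. When all genes with a count were fitted, the edgeR adjusted p was 0.857 for GBP5 and 0.899 for GBP6. GBP7 had 0 counts in all 8 libraries, which allows up to 3 counts in each, and 24.7% of the 50-base windows of its main transcript are shared with other members, nearly all with GBP2.

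Of 30 other rows annotated between the members or within 500 kb of the cluster, 9 were tested, beside 16186 of 60710 in the whole table, and 1 rose and 2 fell, with a median log2 fold change of -0.06, beside -0.0035 over all genes tested. Among all genes tested 14.5% rose and 9.90% fell. LRRC8C, a subunit of the volume-regulated anion channel, rose to 17.9 CPM in TNF-treated cells, against 10.9 CPM in NT cells (log2 0.71 ± 0.14 SE, edgeR adjusted p = 0.0045). LRRC8D, another subunit of that channel, fell to 33.8 CPM in TNF-treated cells, against 53.7 CPM in NT cells (log2 -0.67 ± 0.11 SE, edgeR adjusted p = 0.00158). RBMXL1, on the GBP3 side of the cluster, fell to 27.8 CPM in TNF-treated cells, against 38.1 CPM in NT cells (log2 -0.46 ± 0.07 SE, edgeR adjusted p = 0.00116).

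**Figure D4:**
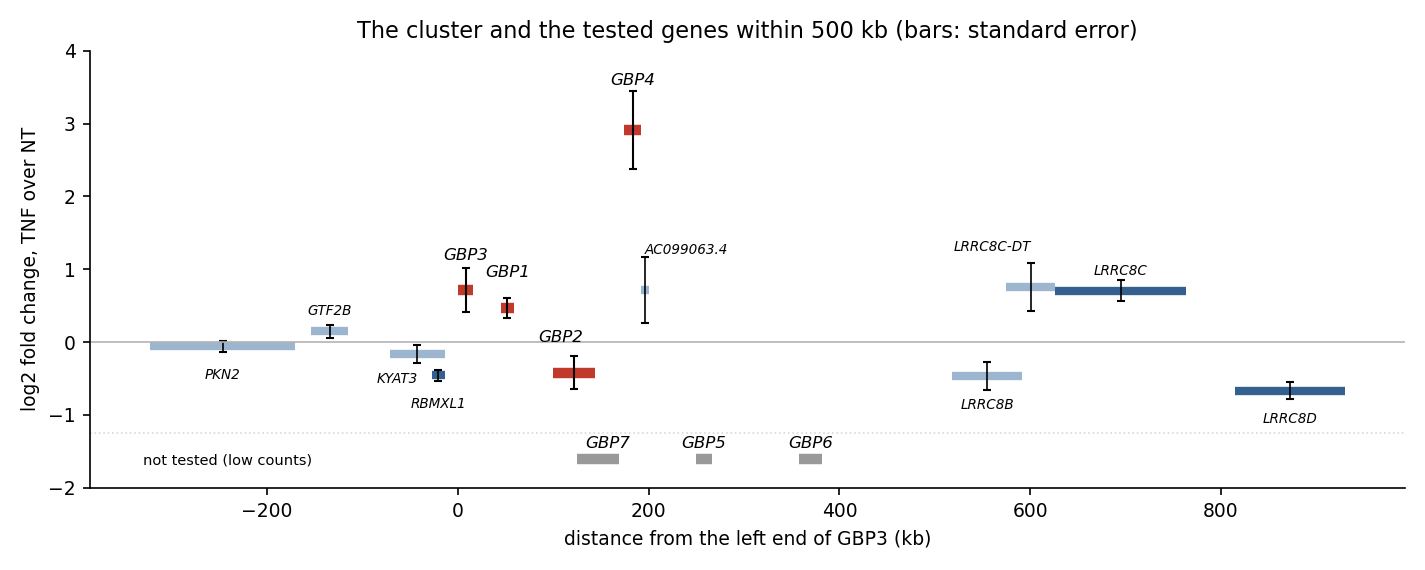
Log2 fold change (TNF over NT) of the GBP genes and of the tested genes within 500 kb against the distance from the left end of GBP3 in kb, drawn to scale with bars for the standard error. Members are red, other genes are dark blue where they passed an adjusted p of 0.05 and pale blue where they did not, and grey members below the dotted line were not tested. GBP4 at 2.91 stands above LRRC8C at 0.71 and the other genes.

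Genes that switch the GBPs on were examined next. Of 16 genes of interferon receptors and signalling, 13 were tested, and 7 rose, with a median log2 fold change of 0.41. Over all genes tested 14.5% rose and 9.90% fell. IRF1, a factor that binds ISRE motifs and drives GBP genes after interferon-gamma, rose to 53.7 CPM in TNF-treated cells, against 13.4 CPM in NT cells (4.0-fold, edgeR adjusted p = 5.46e-06). IRF9, a DNA-binding factor of type I interferon signalling (log2 0.88), and the receptor chains IFNAR2 (0.88) and IFNGR2 (0.81) rose as well. IFNG and IFNB1, which encode interferon-gamma and interferon-beta, had 0 counts in all 8 libraries.

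The other targets of these pathways gave a frame for the size of the GBP response. Their counts stand beside 14.5% of all genes tested that rose and 9.90% that fell. Of 20 targets of interferon-gamma and IRF1, 17 were tested, 12 rose and 1 fell, with a median log2 fold change of 0.63, which stayed at 0.63 with CXCL10 and CXCL11 at their lower bounds. CXCL11 and CXCL10, ligands of the chemokine receptor CXCR3, had 0 counts in all NT libraries and were at least 200.1-fold and 59.4-fold higher in TNF-treated cells, taking 3 counts over the NT group as the floor. They thus passed the filter on low counts only through their TNF libraries. TAPBP, which loads peptides on HLA class I, and the immunoproteasome subunit PSMB10 rose by log2 1.87 and 1.34. Of 19 type I interferon targets, 16 were tested, 8 rose and 1 fell, with a median of 0.60, and the largest rises were in the RNA sensors DDX58 (3.30) and IFIH1 (1.99), IFI44 (1.71) and OASL (1.38). The named targets were those with the largest changes in their lists. The log2 fold change of GBP4 (2.91) was within their range and above both medians. Among the tested targets of these lists only CXCL11, CXCL10 and DDX58 changed more than GBP4. The log2 fold change of GBP1 (0.47) was below both medians.

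Genes that act with the GBPs were also counted. Of 11 genes of inflammasomes and pyroptosis, 8 were tested, 5 rose and 2 fell, with a median log2 fold change of 1.21. Beside this, 14.5% of all genes tested rose and 9.90% fell. The inflammasome sensor NLRP3 reached 15.3 CPM in TNF-treated cells, against 0.763 CPM in NT cells (log2 4.31), and IL1B, the cytokine that this inflammasome matures, 25.3 CPM, against 0.738 CPM (log2 5.08). APOL3, an interferon-induced protein that dissolves bacterial membranes (log2 1.69), and NINJ1, which ruptures the plasma membrane of dying cells (1.33), rose with edgeR adjusted p values of 5.09e-05 and 3.41e-05. CASP4, which encodes caspase-4, rose as well (log2 1.09), while AIM2 and IL18 fell (log2 -1.26 and -1.06). CASP1 and PYCARD were too low to test. They averaged 0.166 and 0.044 CPM in TNF-treated cells, against 0.019 and 0.024 CPM in NT cells.

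Of the 3 binding partners of GBPs, the kinase PIM1, which phosphorylates GBP1, and FURIN, the protease restrained by GBP2 and GBP5, rose (log2 0.67 and 0.61, edgeR adjusted p = 0.00418 and 0.000457). Of the 6 enzymes that prenylate and process CaaX proteins 2 fell, namely FNTB, the beta subunit of farnesyltransferase (log2 -0.39, edgeR adjusted p = 0.0408), and PGGT1B, the same subunit of the enzyme that attaches the longer geranylgeranyl anchor (log2 -0.26, edgeR adjusted p = 0.0455). With the experiment as a block 1 of the 6 rose and 3 fell, beside 21.3% of all genes that rose and 18.2% that fell in that fit. Of 9 related GTPases 6 were tested, and MX1, an antiviral dynamin-like GTPase (log2 0.72, edgeR adjusted p = 0.000991), and IRGQ (log2 1.05, edgeR adjusted p = 0.00134) rose. In the unblocked fit 14.5% of all genes tested rose and 9.90% fell.

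**Figure D5:**
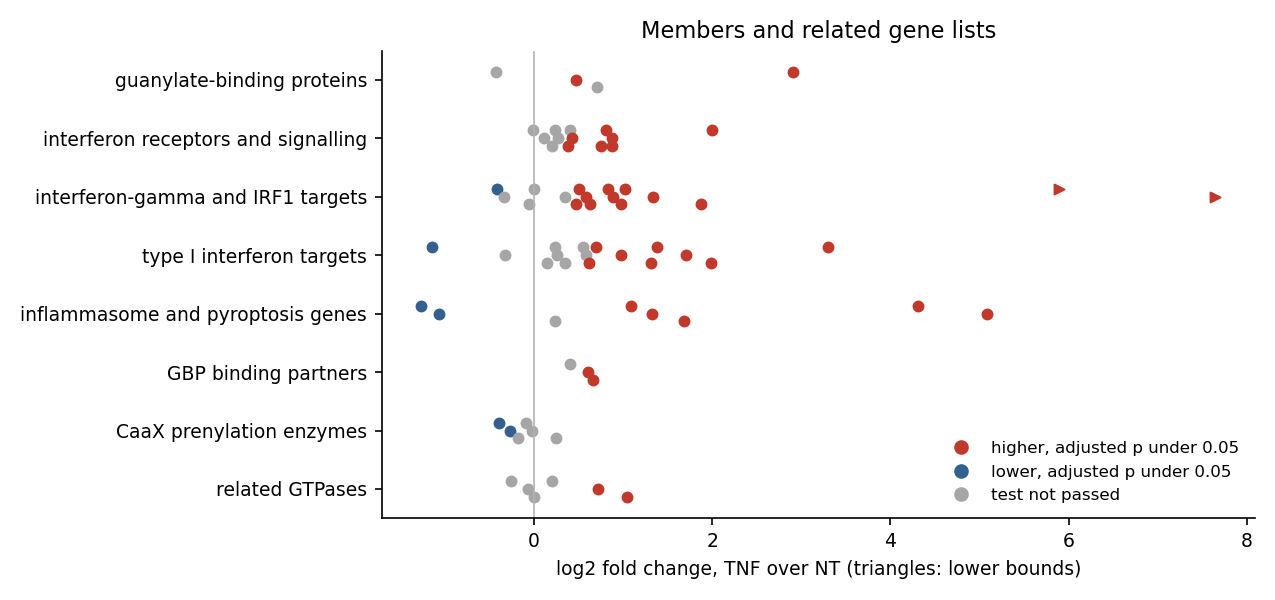
Log2 fold change (TNF over NT) of the 4 tested GBP genes and of the tested genes of 7 related lists, 1 point for each gene, red where higher and blue where lower at an adjusted p under 0.05 and grey where the test was not passed. Triangles are lower bounds for CXCL10 and CXCL11, and GBP4 at 2.91 lies beside DDX58 at 3.30.

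The 12362 genes with enough counts for a comparison of patterns included GBP1 and GBP2 and no other member. Each was compared with the other genes by the root mean square difference of log2 CPM, relative to the NT mean, over 8 libraries. The genes nearest to GBP1 were WBP1L (0.10), CCDC126 (0.11), ANKRD13A (0.115), ANTXR1 (0.12) and RFX3 (0.12), against a median of 0.43 over all genes compared. Those nearest to GBP2 were TRPM4 (0.16), REEP6 (0.18), ZNF337-AS1 (0.18), AMACR (0.19) and RAC3 (0.19), against a median of 0.49. The 5 genes of GBP1 had log2 fold changes of 0.44 to 0.50 and those of GBP2 of -0.42 to -0.38. The distance itself includes the shift with TNF, so this likeness follows from how the genes were chosen.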

How the data were processed

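The authors aligned stranded poly(A) reads with Bowtie2 (version not given in the sources used here) to the human GRCh38 transcriptome and deposited RSEM 1.2.25 expected counts per gene, which divide reads shared by several transcripts. The series table was used. The 4 TNF single-sample records held the same counts as their columns in it, and the 4 NT records each held those of another NT column. Expected counts were rounded, which changed the total by at most 0.000138%. Genes were kept by filterByExpr (10 counts, total of 15), scaled by TMM and tested with edgeR 4.0.16 (R 4.3.3) on 16186 genes, treatment as the only term, Benjamini-Hochberg threshold 0.05. Log2 CPM used a prior count of 2. The fit was tested on simulated data. DESeq2 1.42.0, limma 3.58.1, other scalings, filters, thresholds and left-out libraries were alternatives. Experiments were paired by the date in the column names. The deviations of same-numbered libraries from their group means correlated at 0.351, 0.169, 0.238 and 0.46 over genes. With the NT records' dates these were -0.0707, -0.0992, -0.401 and -0.307, and this numbering was tried as an alternative after seeing the data. P-values measure the spread between these experiments.

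Named were the 7 members, GBP1P1, up to 4 neighbours and up to 4 genes per list with the largest change past the threshold, and the 5 genes nearest to each member whose log2 CPM averaged 1 or more. IFNG, IFNB1, SOX10, PMEL, MLANA, TYR, TYRP1, DCT, CD68, DCN, LYZ, CD14, KRT14, PTPRC, CD3E, CASP4, AIM2, IL18, CASP1 and PYCARD were named beyond that rule. Members and lists were chosen with earlier results of these data known. Gene models came from GENCODE v44, which is not the release the authors used.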

Additional observations from a re-analysis of the deposited data

Results flagged for a closer look

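Among 51 of the named genes, 98 groups of 4 libraries were looked at for a library far from the other 3 by Dixon's criterion, and 4 were found where chance gives about 4.9. None was a GBP gene. In log2 CPM, BIRC3 was 1.76 in NT replicate 4 against 0.13 to 0.30 in the other NT libraries, and LRRC8D was 5.47 in NT replicate 4 against 5.82 to 5.84. TAPBP was 6.99 in TNF replicate 4 against 7.56 to 7.66 in the other TNF libraries. TRPM4, the gene nearest to GBP2 in pattern, was 3.33 in TNF replicate 1 against 2.83 to 2.91, and TNF replicate 1 was also the highest TNF library for GBP2. TRPM4 was chosen for its likeness to GBP2 over these libraries, so this match is no separate result.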

How the results depend on the processing

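GBP4 kept its direction and its call in all 18 alternatives that could test it, with log2 fold changes of 2.56 (without NT replicate 1) to 4.03 (without the 3 libraries with more ribosomal RNA) and adjusted p of 1.4e-05 to 0.0286. It failed a filter of 10 counts in every library. GBP3 kept its direction and missed the threshold in all 18. GBP1 kept its direction in all 19 and its call in 8. Its log2 fold change without its call was 0.409 with upper-quartile factors, 0.383 with library totals, 0.455 with no filter, 0.409 without these 3 (NT replicates 2 and 4, TNF replicate 4) and 0.484 with the replicate block numbered by the NT records. Without each replicate in turn the GBP1 value was 0.397 to 0.562, and the call was kept without NT replicate 1 (0.562) and NT replicate 4 (0.512). GBP2 was lower in all 19, and passed the test at -0.418 with the replicate block and at -0.652 without TNF replicate 1, in a range of -0.652 to -0.278 without each replicate in turn. The number of members called was 2, 3 with the replicate block (GBP1, GBP2 and GBP4), and 1 with upper-quartile factors, library totals, no filter, 10 counts in every library, the 3 libraries left out, a log2 fold change above 1 or the block by the records, and 1 to 2 without each replicate in turn. Over all genes 3948 were called, 6397 with the replicate block, 2358 with the block by the records and 1296 with a log2 fold change above 1. Per kb of the longest transcript the levels of GBP1 and GBP2 moved to 1.97 and 3.07 in TNF-treated cells and 1.42 and 4.10 in NT cells. The causes were not tested. At these depths GBP5, GBP6 and GBP7 did not pass the filter on low counts.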
